A study of Mus musculus with 2 samples.

Results

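The 39 genes described here encode factors of the senescence-associated secretory phenotype (SASP), the set of proteins that senescent cells release or shed. They were taken as a list by name, and all 39 were found among the 19073 features of the count matrices. The list holds 4 cytokines, 10 chemokines, 8 matrix proteases and their inhibitors, 3 genes of the plasminogen system, 4 IGF-binding proteins, 5 growth factors and 5 adhesion molecules and shed receptors. The cells came from livers of male p16-Tom mice on a C57BL/6 background, which were heterozygous for p16-CreERT2 and for R26-CAG-LSL-tdTomato-WPRE. Tamoxifen activates the recombinase in these mice, so that a cell that transcribes p16 at that time keeps the red reporter tdTomato and is called Tom+. Both groups had received CCl4 every 3 days for 4 weeks, a hepatotoxin that damages mainly the hepatocytes around the central vein, together with tamoxifen. By the labels they differ in the reporter gate, with Hoechst+ MitoBrilliant646+ cells sorted into a Tom- and a Tom+ fraction. Whether both fractions came from the same mice and the same harvest is not stated. Other differences between the libraries therefore cannot be told apart from the gate. Each fraction gave 1 library, the age of the mice and the number behind each library are not given in the sources used here, and no untreated liver is among the samples. There is therefore no test between the fractions, and every difference below compares these 2 libraries, not the conditions, with 95% intervals that cover counting error only.

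The secretory phenotype links a cell that has left the cell cycle to its neighbours. Cytokines and chemokines recruit and activate leukocytes, proteases open the matrix, and growth factors act on endothelial, stellate and epithelial cells. Many of these genes are transcribed in response to NF-κB and C/EBPβ, the main regulators of the phenotype. In the injured liver the same factors are also made by Kupffer cells, sinusoidal endothelium and hepatic stellate cells, the retinoid-storing cells that turn into matrix-producing cells in fibrosis, so the cell of origin has to be known before a level is read.

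After filtering, 20159 Tom- and 13378 Tom+ cells were kept, with a median of 26694 and 36075 UMIs (counted molecules), and 503 barcode sequences occurred in both libraries. Clustering gave 10185 Tom- and 9419 Tom+ hepatocytes, of which 4778 and 2365 were zone 1-like (periportal) and 1116 and 3833 zone 3-like (pericentral), and the rest carried no zone name. Smaller classes were named from their markers as endothelial-like (416 and 153 cells), stellate-like (166 and 60), macrophage-like (357 and 133), other leukocyte-like (85 and 38) and cholangiocyte-like (46 and 13). Over hepatocytes and at 50 CPM or more, cholangiocyte-like cells were led by Dmbt1 with Krt19, Epcam and Tspan8 among the first 10 genes, and the other leukocyte-like cells by S100a9 and S100a8 in one cluster and Il2rb and Coro1a in the other, although their most abundant genes were partly those of hepatocytes. The remaining cells had mixed or low-gene profiles and were not used as a class. The sort was aimed at hepatocytes, and the small classes still carried much hepatocyte RNA: albumin (Alb) stood at 133462 and 135175 CPM (the UMIs of the gene relative to all UMIs summed over the class, on the usual CPM scale) in endothelial-like cells of the Tom- and Tom+ library, against 119303 and 107974 CPM in hepatocytes. Levels are given below as CPM with the Tom- library first, and they are compared between classes and libraries but not between genes, because the number and strength of probes differ from gene to gene. The reporter followed the gate, with tdTomato at 73.2 CPM in Tom- and 817 CPM in Tom+ hepatocytes.

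Cxcl1, Cxcl2 and Csf1 were picked as examples from 6 members that share a sequence feature, and the choice is no ranking. Their promoter windows are shown first. They lie just upstream of the start sites annotated by RefSeq on GRCm38.p6, are written 5′ to 3′ on the strand of the gene, and carry in capitals the bases that match the NF-κB consensus (the decameric κB site, searched by name on both strands). The Cxcl1 window covers chr5:90891129-90891229 (+), with 2 overlapping matches on opposite strands from 71 to 61 bases before the start. The Cxcl2 window covers chr5:90903757-90903857 (+), with matches of the same kind from 97 to 87 bases before the start. The Csf1 window covers chr3:107760569-107760668 (-), with a match on the opposite strand from 154 to 145 bases before the start.
Cxcl1: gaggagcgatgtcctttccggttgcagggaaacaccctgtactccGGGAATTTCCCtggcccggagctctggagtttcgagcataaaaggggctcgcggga
Cxcl2: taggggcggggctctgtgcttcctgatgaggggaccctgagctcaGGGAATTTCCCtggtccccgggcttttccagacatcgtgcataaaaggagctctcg
Csf1: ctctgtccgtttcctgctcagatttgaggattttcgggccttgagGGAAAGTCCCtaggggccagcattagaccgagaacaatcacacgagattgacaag
Within 250 bases before the start, 6 of the 28 members in the promoter table (21.4%) held such a match, namely Il6, Cxcl1, Cxcl2, Igfbp5, Vegfa and Csf1, against 1204 of 27025 genes (4.46%). A match describes letters in a window and was not taken as a binding site. Cxcl12, Mmp14, Icam1, Tnfrsf1a, Tnfrsf1b and Fas, which also had hepatocyte signal (below), were in the table without a match. Cxcl5, Cxcl16, Ccl2, Ccl5, Ccl7, Mmp2, Mmp9, Plau, Plat, Ereg and Vcam1 were not in the table.

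The secretory genes were distributed over the liver's cell types, and no member had its highest level in hepatocytes in both libraries. Stellate-like cells held the highest level of 12 members in both libraries, macrophage-like cells of 10, endothelial-like cells of 3 and other leukocyte-like cells of 2. No minimum count was set for this, so the places of Igfbp6, Timp1 and Il6, among others, rest on few UMIs (below). For 10 members the class with the highest level differed between the libraries, and Ccl8 and Mmp3 had no level in any named class. Cxcl1, Vegfa and Areg were among these 10, and hepatocytes held their highest level in the Tom+ library. In the Tom- library other leukocyte-like cells exceeded hepatocytes for Cxcl1 and cholangiocyte-like cells for Vegfa. These 2 classes held hepatocyte markers there at a median of 96.9% and 96.5% of the hepatocyte level. The map of levels by class shows the blocks: matrix and IGF-binding genes in stellate-like cells, cytokines in macrophage-like cells, and a set of genes that is present in every class.

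**Figure D1:**
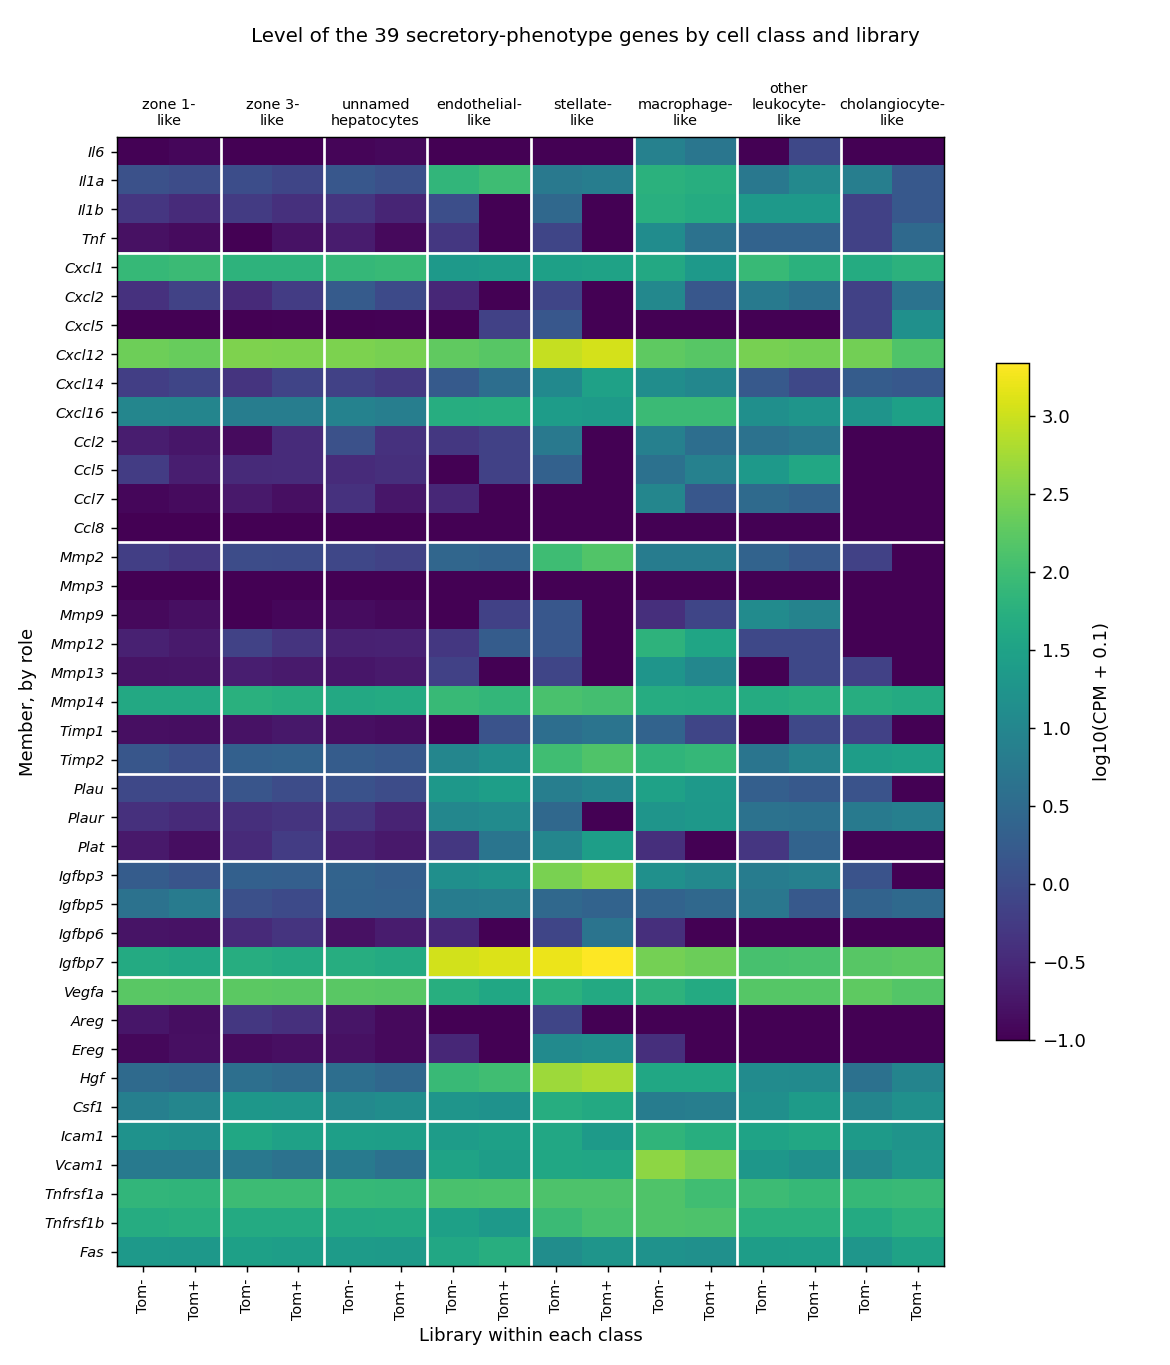
Level of each of the 39 genes (rows, grouped by role) in 8 cell classes, with the Tom- and Tom+ library side by side, as log10 of CPM + 0.1. Igfbp7, Hgf and Igfbp3 are brightest in stellate-like cells, Il1b and Vcam1 in macrophage-like cells, while Cxcl12, Vegfa, Cxcl1 and Tnfrsf1a are bright in the hepatocyte columns, and Mmp3 is dark throughout.

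Whether hepatocytes had signal of their own was judged against the RNA that other cells leave in them. For each source class (endothelial-like, stellate-like, macrophage-like and other leukocyte-like) the level of its markers in hepatocytes was divided by their level in the class. The highest of these ratios was 4.91% and 3.10% for endothelial markers (Erg), 2.41% and 2.00% for stellate markers (Rgs5), 3.11% and 3.38% for macrophage markers (Cd68) and 0.687% and 0.718% for other leukocyte markers (Csf3r) in the Tom- and Tom+ library. These ratios times the member's level in each class, added up, gave its carry-over level. A member was counted as above carry-over where the lower counting bound of its hepatocyte level exceeded that level in both libraries, a strict rule because the small classes hold hepatocyte RNA too.

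By this rule 15 of the 39 members (38.5%) were above carry-over in hepatocytes, where 61.9% of all 19073 features were. They were Cxcl1, Cxcl2, Cxcl12, Cxcl16 and Ccl2 among the chemokines, Mmp14 among the matrix genes, Igfbp5 and Igfbp6, the growth factors Vegfa, Areg and Csf1, and the surface receptors Icam1, Tnfrsf1a, Tnfrsf1b and Fas. None of the 4 cytokines and none of the 3 plasminogen genes was above it. The call was the same in all 10 alternatives that bear on it for 12 of the 15 members, whereas it held for Igfbp6 in 8, for Cxcl2 in 7 and for Ccl2 in 4. The 12 include Areg, whose carry-over level was 0.017 and 0 CPM because the source classes held almost none of its UMIs. In the Tom+ library any hepatocyte UMI of Areg would have passed the rule, so its stable call says little. Of the 39 members, 27 had at least 100 UMIs in hepatocytes over both libraries, 12 had fewer, and 2 of these, Ccl8 and Mmp3, had none.

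**Figure D2:**
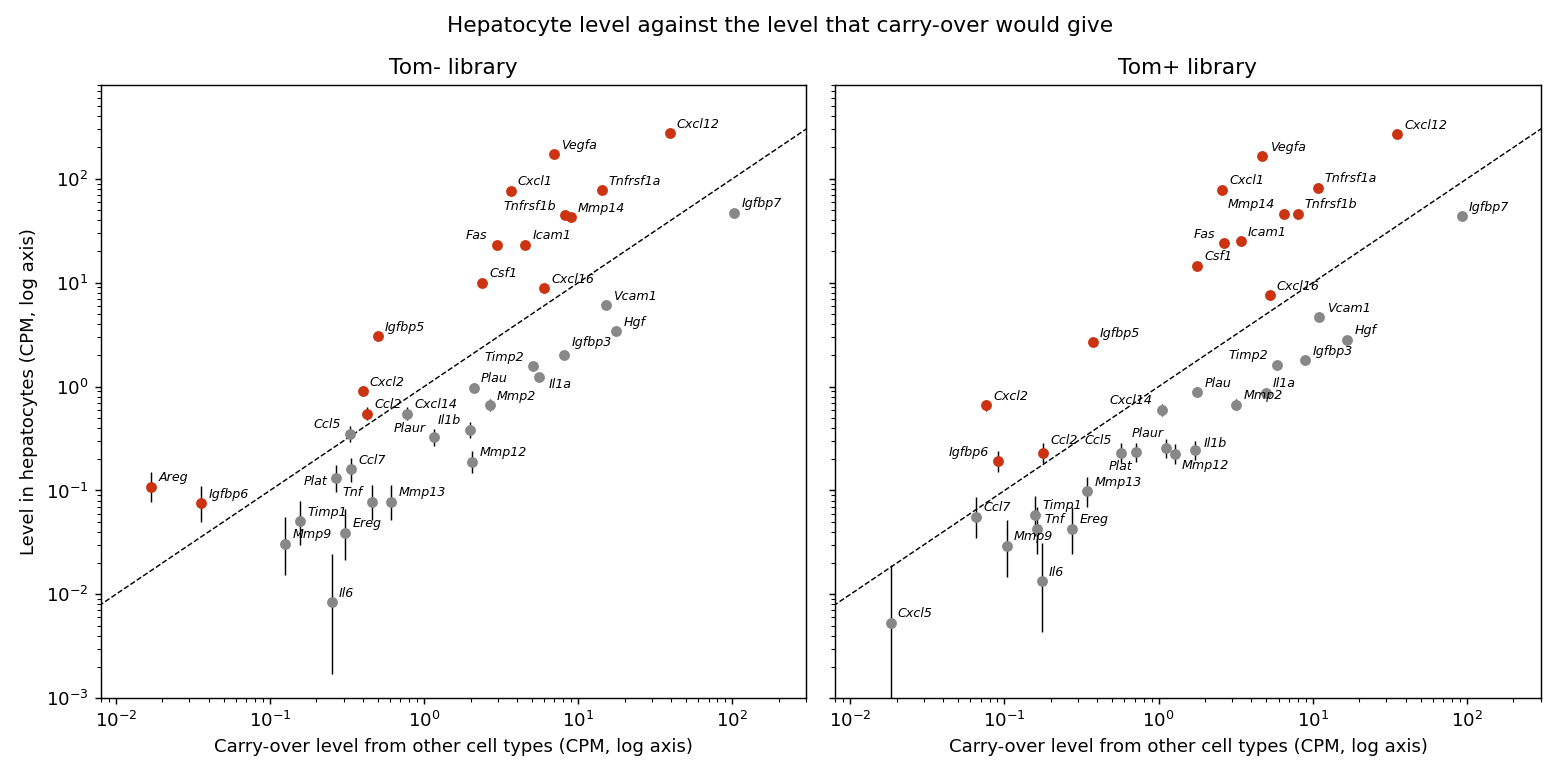
Level of each member in hepatocytes (vertical, CPM, log axis) against its carry-over level from other cell types (horizontal, CPM, log axis), for the Tom- and the Tom+ library. Points are members with at least 1 UMI and a carry-over level above 0, bars are 95% Poisson intervals, the dashed line marks equality, and red points are the members above carry-over in both libraries. Cxcl1 and Vegfa lie farthest above the line in the Tom+ library, at 30.2 and 35.0 times their carry-over level, while Igfbp7, Hgf and Vcam1 lie below it.

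The 4 cytokines were macrophage and endothelial genes in these data. Il1b, the secreted interleukin-1 of activated macrophages, stood at 55.4 and 46.5 CPM in macrophage-like cells and at 0.383 and 0.243 CPM in hepatocytes, below its carry-over levels of 1.99 and 1.72 CPM. Il1a, the membrane-bound interleukin-1 that drives the phenotype from the cell surface, was highest in endothelial-like cells (72.6 and 96.9 CPM) and also present in macrophage-like cells (59.7 and 51.5 CPM). In hepatocytes it was at 1.23 and 0.872 CPM, likewise below carry-over (5.59 and 4.96 CPM). With every hepatocyte thinned to 5000 UMIs, 0.641% and 0.394% of them held an Il1a UMI, against 26.3% and 23.1% of endothelial-like cells. Il6, the cytokine most often used to score the phenotype, gave 3 and 5 UMIs in all hepatocytes together. Its level in macrophage-like cells was 8.08 and 5.01 CPM, from 28 and 7 UMIs. Tnf was found in macrophage-like cells at 13.0 and 4.29 CPM, from 45 and 6 UMIs, and in hepatocytes at 0.0782 and 0.0427 CPM.

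Among the chemokines, Cxcl1 and Cxcl12 had the clearest hepatocyte signal. Cxcl1, a ligand of Cxcr2 that attracts neutrophils (gene at chr5:90891241-90893115, + strand, GRCm38), stood at 77.0 CPM (95% interval 76.1 to 77.9) in Tom- and 78.2 CPM (77.3 to 79.1) in Tom+ hepatocytes. That is 21.2 and 30.2 times its carry-over level. Other leukocyte-like cells had 83.6 and 59.8 CPM, more than hepatocytes in the Tom- and less in the Tom+ library, and endothelial-like cells 21.7 and 24.7 CPM. At 5000 UMIs per cell 28.1% and 26.4% of hepatocytes held a Cxcl1 UMI, against 9.91% and 9.89% of endothelial-like cells, and without thinning 70.7% and 69.2% of hepatocytes did. Cxcl12, the ligand of Cxcr4 (chr6:117168535-117181367, + strand), was highest in stellate-like cells (918 and 1148 CPM), yet hepatocytes held 276 and 270 CPM, or 7.06 and 7.65 times carry-over. It was evenly spread, since the 1% of hepatocytes with the most UMIs of the gene held 3.46% and 3.67% of its UMIs and 73.7% and 72.1% of thinned hepatocytes carried it.

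The other chemokines were sparse in hepatocytes or came from leukocytes. Cxcl16, a membrane-bound ligand of Cxcr6, was highest in macrophage-like cells (88.8 and 90.1 CPM) and stood at 8.86 and 7.58 CPM in hepatocytes, only 1.48 and 1.44 times carry-over. Cxcl2, a paralog of Cxcl1 that also binds Cxcr2, was at 0.899 and 0.659 CPM in hepatocytes and at 10.7 and 1.43 CPM in macrophage-like cells (37 and 2 UMIs), and 1 Tom- cell alone held 52 of the 322 UMIs. Whether probes of Cxcl1 and Cxcl2 can bind the transcript of the other was not checked, so both levels carry that uncertainty. Ccl2, the chemokine for monocytes, was at 0.550 and 0.229 CPM, 1.29 times carry-over in each library, with 7.79 and 3.58 CPM in macrophage-like and 4.28 and 5.44 CPM in other leukocyte-like cells, and 1 Tom- cell held 65 of its 197 UMIs. Both genes were thus carried by few cells: 106 and 154 hepatocytes had a Cxcl2 UMI, and 39 and 54 a Ccl2 UMI. Ccl5, a chemokine of T and NK cells, was highest in other leukocyte-like cells (22.2 and 39.6 CPM). Cxcl14 was found at 13.3 and 10.0 CPM in macrophage-like and 11.3 and 29.7 CPM in stellate-like cells, and at 0.550 and 0.597 CPM in hepatocytes, under its carry-over levels of 0.775 and 1.05 CPM. Ccl7 had 57 and 21 UMIs in hepatocytes, against 34 and 2 in the far smaller macrophage-like class. Cxcl5 had 0 and 2 UMIs in hepatocytes and 33 in all barcodes, of which 10 lay in the Tom+ cholangiocyte-like cells, and Ccl8 had 7 UMIs in all barcodes.

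Of the 8 matrix proteases and inhibitors, 1 was above carry-over in hepatocytes, and the others had their highest levels in stellate-like, macrophage-like or other leukocyte-like cells, except Mmp3, which was not detected. Mmp14, the membrane-bound collagenase that activates Mmp2, stood at 42.6 and 46.1 CPM in hepatocytes (4.76 and 7.12 times carry-over) and at 124 and 110 CPM in stellate-like cells. Mmp2, a gelatinase, was a stellate gene at 96.0 and 144 CPM, and its 0.662 and 0.669 CPM in hepatocytes lay below carry-over (2.67 and 3.18 CPM). Timp2, an inhibitor of both, was at 103 and 139 CPM in stellate-like and at 67.8 and 77.2 CPM in macrophage-like cells, and at 1.57 and 1.62 CPM in hepatocytes against carry-over levels of 5.11 and 5.90 CPM. The macrophage elastase Mmp12 (64.0 and 35.8 CPM) and the collagenase Mmp13 (18.2 and 10.0 CPM) were highest in macrophage-like cells. Mmp9, a gelatinase of neutrophils, was highest in other leukocyte-like cells (12.1 and 8.54 CPM) and gave 11 UMIs in the hepatocytes of each library. Timp1, a standard marker of fibrogenic activation, was hardly detected: 18 and 22 UMIs in hepatocytes, and 5 and 2 UMIs in stellate-like cells. Mmp3, the first stromelysin, had 0 UMIs in all barcodes of both libraries, which in hepatocytes allows a level of up to 0.00838 CPM (Tom-) and 0.008 CPM (Tom+), so its absence cannot be told from a probe that does not work.

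The plasminogen genes lay below carry-over in hepatocytes. Plau, the urokinase, stood at 29.7 and 22.2 CPM in macrophage-like and at 20.1 and 27.0 CPM in endothelial-like cells, and at 0.978 and 0.880 CPM in hepatocytes (carry-over 2.09 and 1.78 CPM). Its receptor Plaur was at 18.5 and 20.7 CPM in macrophage-like cells and 0.324 and 0.256 CPM in hepatocytes. Plat, the tissue activator, was highest in stellate-like cells at 9.89 and 27.4 CPM, from 14 and 12 UMIs.

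The IGF-binding proteins split by cell type. Igfbp7 and Igfbp3 were stellate genes: Igfbp7, which is also abundant in vessels, stood at 1638 and 2177 CPM in stellate-like and 1109 and 1297 CPM in endothelial-like cells, and Igfbp3, the main carrier of IGF1 in serum, at 287 and 400 CPM in stellate-like cells. The 47.3 and 43.8 CPM of Igfbp7 in hepatocytes, from 16932 and 16415 UMIs, were 0.459 and 0.473 times its carry-over levels (103 and 92.5 CPM). This call depended on the marker ratio taken, since with the median in place of the highest ratio the carry-over levels were 43.6 and 35.0 CPM and Igfbp7 was above them, as were Cxcl14 and Ccl5. Igfbp5 was low but above carry-over by 6.09 and 7.2 times, with 3.05 and 2.68 CPM in hepatocytes and 6.63 and 7.05 CPM in endothelial-like cells. Its highest level lay outside the named classes, in a cluster led by mesothelial genes (308 and 335 CPM), and with that cluster as a further source the hepatocyte level was 1.57 and 1.33 times carry-over. Igfbp6 gave 27 and 72 UMIs in hepatocytes, and its place above carry-over rested on the few UMIs of the other classes (1 and 2 in stellate-like cells) and was lost with the mesothelial-gene cluster as a further source.

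Of the growth factors, Vegfa, the main growth factor of endothelium (chr17:46016993-46032369, - strand), was widespread in hepatocytes at 172 and 165 CPM, 24.7 and 35.0 times carry-over. At 5000 UMIs per cell 58.3% and 56.5% of hepatocytes held a Vegfa UMI, against 20.4% and 14.3% of endothelial-like cells, which stood at 52.1 and 38.8 CPM. Cholangiocyte-like cells (181 and 153 CPM) and other leukocyte-like cells (154 and 156 CPM) were close to hepatocytes. Csf1, the growth factor of macrophages (chr3:107741048-107760469, - strand), stood at 9.99 and 14.6 CPM in hepatocytes, 4.21 and 8.23 times carry-over, and at 49.4 and 43.5 CPM in stellate-like cells. Hgf, the mitogen of hepatocytes, was a stellate gene at 502 and 611 CPM, and the 3.40 and 2.83 CPM seen in hepatocytes lay far under its carry-over levels (17.6 and 16.7 CPM). The EGF receptor ligand Areg gave 39 and 52 hepatocyte UMIs, and 37 of the 52 Tom+ UMIs lay in a single cell; stellate-like cells held 1 and 0 UMIs. Its relative Ereg had 14 and 16 hepatocyte UMIs and was highest in stellate-like cells (12 and 13.7 CPM).

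Of the 5 adhesion molecules and shed receptors, 4 had hepatocyte signal of their own. Icam1, the ligand of leukocyte integrins (chr9:21015985-21028817, + strand), stood at 23.2 and 25.0 CPM in hepatocytes, 5.12 and 7.35 times carry-over, and at 67.8 and 52.2 CPM in macrophage-like cells. Tnfrsf1a, the main receptor of Tnf, was at 77.8 and 82.1 CPM in hepatocytes (5.48 and 7.64 times carry-over) and between 80.8 and 138 CPM in the endothelial-like, stellate-like, macrophage-like and other leukocyte-like classes. Tnfrsf1b, the second Tnf receptor, was at 44.4 and 46.3 CPM in hepatocytes and 138 and 133 CPM in macrophage-like cells. Fas, the death receptor that makes hepatocytes sensitive to Fas ligand, was at 23.2 and 24.1 CPM in hepatocytes (7.84 and 9.02 times carry-over) and at 39.6 and 51.7 CPM in endothelial-like cells. Vcam1 differed from these, since it was a macrophage gene here at 402 and 277 CPM and its 6.05 and 4.65 CPM in hepatocytes were below carry-over (15.2 and 11 CPM).

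A few of these genes differed between hepatocytes of the central and the portal zone, at a share not far above that of all genes. The same direction in both libraries was a condition of the call and is not a finding of its own. Of 20 members with at least 100 UMIs over both zones in each library, 5 (25.0%) differed by at least 1.5-fold the same way in both libraries, against 15.1% of the 10975 genes tested. Csf1 and Icam1 were higher in zone 3-like and Igfbp5 in zone 1-like hepatocytes. Csf1 stood at 19.8 CPM in zone 3-like against 7.40 CPM in zone 1-like cells of the Tom- library, a log2 ratio of 1.42 (1.28 to 1.56), and at 19.0 against 9.75 CPM in the Tom+ library, 0.96 (0.85 to 1.07). Icam1 stood at 37.8 against 16.3 CPM (1.22, 1.12 to 1.31) and at 30.5 against 14.1 CPM (1.11, 1.02 to 1.2). Igfbp5 (chr1:72857932-72874884, - strand) was at 1.05 against 4.25 CPM (-2.02, -2.57 to -1.51) and at 0.844 against 6.34 CPM (-2.91, -3.20 to -2.63). The intervals of these 3 genes stayed clear of 0 in both libraries, as did those of Mmp2 and Timp2 (below).

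Mmp2 and Timp2 were the other 2 members past this fold, at 0.924 against 0.530 CPM (Tom-) and 0.879 against 0.402 CPM (Tom+) for Mmp2 and 2.04 against 1.34 CPM and 2.19 against 0.985 CPM for Timp2. Both lay below carry-over. The summed level of the 15 stellate markers was also higher in zone 3-like (105 and 99.2 CPM) than in zone 1-like hepatocytes (60.9 and 53.4 CPM). Its part in the values of Mmp2 and Timp2 was not tested. Among hepatocytes under the median of non-hepatocyte markers neither was called. Fewer UMIs remain there, and among all hepatocytes Mmp2 held 117 and Timp2 287 Tom- UMIs over both zones. A lost call can thus come from too few UMIs as well as from a smaller ratio. Median-of-ratios scaling also dropped Timp2. Csf1 and Icam1 were called in both of these settings and with thinned cells. Igfbp5 was not called with thinned cells because it had too few UMIs there. Its log2 ratios of -1.29 (Tom-) and -3.37 (Tom+) in thinned cells still passed the fold. The Tom- zone 3-like cells were nearly all in 1 cluster (1076 of 1116 cells), whereas the Tom+ ones were split between that cluster (2313 cells) and a second one led by H2-Q1 and Ces2c (1520 cells).

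The remaining members above carry-over with at least 100 UMIs in each library varied less between the zones. Cxcl1 was lower in zone 3-like cells, at 63.0 against 80.2 CPM (Tom-) and 64.4 against 90.6 CPM (Tom+), and so was Cxcl16, at 6.92 against 9.65 and 6.76 against 9.40 CPM. Cxcl16 passed 1.5-fold in both libraries under median-of-ratios scaling and among hepatocytes under the median of non-hepatocyte markers. With the highest doublet scores left out, the Tom- log2 ratio of Cxcl1 between the zones was 0.019. Cxcl12 was higher there, at 316 against 242 and 301 against 210 CPM, as were Tnfrsf1a (95.9 against 72.8 and 95.4 against 69.4 CPM), Mmp14 (56.5 against 41.2 and 49.9 against 41.9 CPM) and Fas (29.2 against 21.1 and 27.2 against 20.9 CPM). Vegfa was nearly level, at 178 against 172 and 171 against 164 CPM. Tnfrsf1b was slightly lower in zone 3-like cells, at 44.4 against 47.9 and 44.3 against 52.7 CPM. The median of all genes was shifted by 0.18 and 0.22 (log2) between the zones, so that relative to it Vegfa was lower in zone 3-like cells, while Csf1, Icam1 and Igfbp5 kept their direction. Among members with too few UMIs for a call, Areg stood at 0.414 against 0.0844 CPM and 0.302 against 0.0424 CPM, and Igfbp6 at 0.223 against 0.0663 CPM and 0.350 against 0.0635 CPM, both higher in zone 3-like cells. The order of Areg rested on 1 cell in each library (10 and 37 UMIs), without which it stood at 0.0956 against 0.0844 CPM and 0.0480 against 0.0424 CPM. Ccl2 was lower there in the Tom- and higher in the Tom+ library, from 21 and 44 UMIs.

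**Figure D3:**
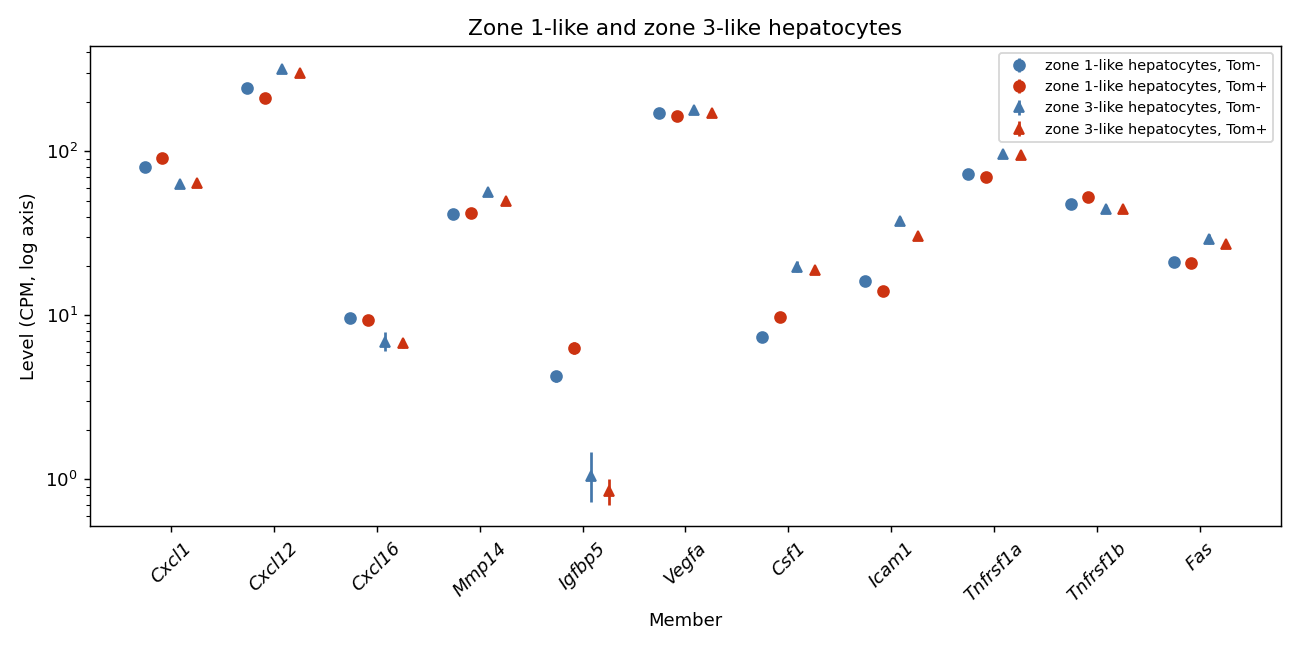
Level (CPM, log axis) of 11 members above carry-over with at least 100 UMIs, in zone 1-like (circles) and zone 3-like (triangles) hepatocytes of the Tom- (blue) and Tom+ (red) library, with 95% Poisson intervals. The triangles of Csf1 and Icam1 lie above their circles and those of Igfbp5 far below, in both colours.

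The comparison of Tom+ with Tom- hepatocytes asks whether cells marked by p16 transcription carry more of the secretory phenotype. Over all hepatocytes 27 members could be compared, and 4 of them (14.8%) differed by at least 1.5-fold, against 5.81% of 12144 genes. Of these, Ccl2, Il1b and Ccl5 were lower and Plat was higher in the Tom+ library, and only Ccl2 was above carry-over. The median log2 ratio of Tom+ over Tom- was -0.06 over the 27 members and 0.04 over all genes tested.

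The members with the clearest hepatocyte signal were close between the libraries. The log2 ratio of Cxcl1 was 0.02 (-0.0025 to 0.05), that of Cxcl12 -0.03 (-0.04 to -0.02), that of Vegfa -0.06 (-0.08 to -0.04), that of Tnfrsf1a 0.08 (0.05 to 0.10), that of Tnfrsf1b 0.06 (0.03 to 0.09) and that of Fas 0.05 (0.01 to 0.10). Mmp14 and Icam1 were both at 0.11, Igfbp5 at -0.18 and Cxcl16 at -0.23. None of these 10 genes reached 1.5-fold in either direction.

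The 4 called members were all sparse. Ccl2 fell by 1.26 on the log2 scale from Tom- to Tom+ (interval -1.65 to -0.89, 197 and 86 UMIs), but 167 of the 197 Tom- UMIs lay in 1 cluster of 116 cells, and without that cluster the ratio was 0.92, in the other direction. Il1b (137 and 91 UMIs, log2 ratio -0.66, -1.06 to -0.26) and Ccl5 (126 and 86 UMIs, -0.62, -1.03 to -0.21) were not above carry-over, and 1 Tom- cell held 65 of the Ccl5 UMIs. The summed macrophage markers were also lower in Tom+ than in Tom- hepatocytes, at 176 against 219 CPM with 1 of 13 markers higher and none at 0. Neither Il1b nor Ccl5 passed 1.5-fold without the same cluster, and Ccl5 passed it in the other direction once the cells with the highest doublet scores were left out. Cxcl2, at -0.45 over all hepatocytes, stood at 0.66 without that cluster. Plat (47 and 88 UMIs, 0.84, 0.31 to 1.38) was below carry-over too, and 71 of the Tom+ UMIs were in zone 3-like cells. It was not called without the 2 clusters that were at least 90% Tom+. Igfbp6, with 27 and 72 UMIs just short of the limit for a call, was higher in the Tom+ library (log2 ratio 1.35, 0.69 to 2.04) and was called at both other resolutions and with members among the variable genes. Without the clusters at least 90% Tom+ its log2 ratio was 0.38 (0.0730 and 0.0948 CPM), and with 1 common mix of zones it was 1.52-fold higher. The part of the markers and of the zones in these differences was not tested.

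Csf1 came nearest to the threshold among the members with clear hepatocyte signal, and the size of its difference varied by zone. Over all hepatocytes it was higher in the Tom+ library by 0.55 on the log2 scale (0.49 to 0.61), or 1.46-fold. Zone 3-like cells made up 11% of Tom- and 40.7% of Tom+ hepatocytes, and Csf1 is higher in that zone. Within zone 3-like cells the ratio was -0.06 (-0.18 to 0.07), within zone 1-like cells 0.40 (0.27 to 0.52), and with 1 common mix of zones for both libraries Csf1 was 1.14-fold higher. The part of the zone mix in the difference over all hepatocytes was not tested further. Icam1 even turned with the mix, from 1.08-fold with each library's own zones to 0.892-fold with the common mix, with log2 ratios of -0.20 in zone 1-like cells and -0.31 in zone 3-like ones. Igfbp5 turned the other way, from 0.880-fold to 1.25-fold, with a log2 ratio of 0.58 (0.42 to 0.74) in zone 1-like cells and of -0.32 (-0.88 to 0.28) in zone 3-like ones.

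Within a zone, few members differed between the libraries. In zone 1-like cells 1 of 21 members (4.76%) passed 1.5-fold, against 1.97% of 11163 genes, and it was Cxcl2 at 0.94 (0.38 to 1.51), from 53 and 58 UMIs. In zone 3-like cells 1 of 20 (5.00%) passed, against 2.59% of 11063 genes, and it was Cxcl14 at 0.97 (0.07 to 2.02), from 11 and 100 UMIs and below carry-over. Neither member was called without 2 clusters that were at least 90% Tom+ (35 and 477 cells, and 40 and 1520 cells, Tom- first). Cxcl2 was then at 0.93 from too few UMIs for a call. Dbp was among the first 10 genes of both clusters. Igfbp5, at 0.58 in zone 1-like cells, just under the fold, was called there in 5 alternatives: resolution 1.2, members among the variable genes, fewer doublets, thinned cells and median-of-ratios scaling. The members' median log2 ratio was -0.04 in zone 1-like cells (all genes -0.03) and -0.07 in zone 3-like cells (all genes 0.01).

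**Figure D4:**
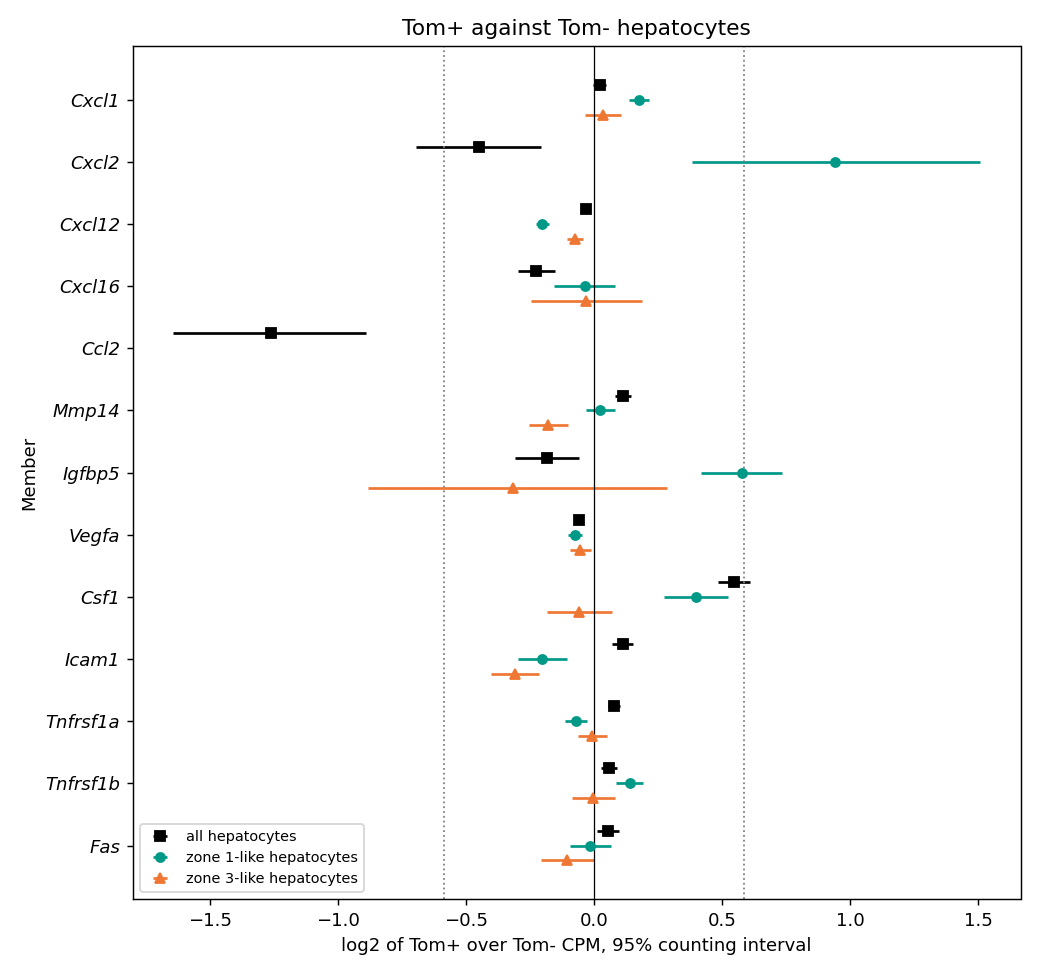
Log2 ratio of Tom+ over Tom- CPM with 95% counting intervals for members above carry-over, in all hepatocytes (black squares), zone 1-like (green circles) and zone 3-like cells (orange triangles). A marker is drawn where the 2 sums hold at least 100 UMIs, and dotted lines mark 1.5-fold. Cxcl1, Cxcl12, Vegfa, Tnfrsf1a, Tnfrsf1b and Fas lie near 0, Csf1 moves from 0.55 over all hepatocytes to -0.06 in zone 3-like cells, and Ccl2 lies at -1.26.

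In the small classes the Tom+ library held few cells, and the sort gave cells with much hepatocyte RNA, so the reporter of a non-hepatocyte cell cannot be told apart from that of hepatocyte material joined to it. In stellate-like cells 1 of 10 members (10.0%) passed 1.5-fold, against 7.76% of 3390 genes: Mmp2 was at 96.0 and 144 CPM (log2 ratio 0.59, 0.13 to 1.03, 136 and 63 UMIs). Mmp2 was not called at resolution 0.4, where Ccl2, Igfbp5 and Vcam1 were called instead, all lower, nor with thinned cells or median-of-ratios scaling. Igfbp3 (0.48, 0.21 to 0.74), Igfbp7 (0.41, 0.30 to 0.52), Cxcl12 (0.32, 0.17 to 0.47) and Hgf (0.28, 0.07 to 0.49) were higher as well, below that fold. The members' median was 0.37, against 0.03 for all genes tested. All 15 stellate markers were higher in the Tom+ library too, their sum by 1.35-fold (8862 to 11928 CPM), and the part of this in the members' values was not tested.

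In macrophage-like cells the values ran the other way. Here 2 of 16 members (12.5%) passed 1.5-fold, against 4.28% of 7015 genes. Cxcl1 was at 41.2 and 22.2 CPM (-0.90, -1.51 to -0.33, 143 and 31 UMIs) and Mmp12 at 64.0 and 35.8 CPM (-0.84, -1.31 to -0.39, 222 and 50 UMIs). Macrophage-like cells held hepatocyte markers at a median of 80.9% and 88.4% of the hepatocyte level. Cxcl1 was higher in hepatocytes, at 77.0 and 78.2 CPM, and how much of it in this class was hepatocyte RNA was not tested. The call of Cxcl1 was lost at resolution 0.4, with fewer doublets, with thinned cells and with members among the variable genes, and in the last of these Mmp12 was lost as well, with Igfbp7 and Tnfrsf1a called lower instead. Vcam1 was lower by less than the fold (-0.53, -0.70 to -0.37). The sum of the 13 macrophage markers was 0.832-fold that of the Tom- library, with 1 marker higher, and the members' median was -0.23 against -0.07 for all genes tested. In endothelial-like cells 0 of 16 members passed, against 3.19% of 7209 genes. Il1a was at a log2 ratio of 0.42 (0.14 to 0.69), Fas at 0.39 (0.01 to 0.75) and Plau at 0.43 (-0.11 to 0.94), and the 13 endothelial markers summed to 1.09-fold with 12 of them higher. In other leukocyte-like cells Ccl5 was at 22.2 and 39.6 CPM (0.84, 0.26 to 1.41, 57 and 51 UMIs). That class pools 2 different clusters, of 31 and 12 and of 54 and 26 cells. Its share of all genes past 1.5-fold and its calls in the alternatives were not computed.

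A small cluster of hepatocytes carried several members at high levels. It was led by the interferon-response genes Rsad2, Cxcl10, Ifit3b, Ifit3, Cmpk2 and Ifit1, held 116 Tom- and 149 Tom+ cells and 1.27% and 1.76% of the hepatocyte UMIs, and was singled out after its values had been seen. The members had not been used for the clustering, and the values are a description without a test. Icam1 stood at 156 and 114 CPM there, 7.27 and 4.88 times the level of the other hepatocytes. Cxcl1 was at 271 CPM in both libraries, 3.63-fold higher in each. Csf1 was at 34.9 and 33.0 CPM, 3.61- and 2.31-fold higher, and Fas 1.81- and 1.53-fold. These 4 genes were found in many of the cluster's 116 and 149 cells. A Cxcl1 UMI was in 85 and 114 cells, and an Icam1 UMI in 85 and 116. Csf1 was found in 81 and 89 cells and Fas in 80 and 111. Among all hepatocytes 70.7% and 69.2% held a Cxcl1 UMI and 44.8% and 50.8% an Icam1 UMI. For Csf1 that share was 27.4% and 39.2%, and for Fas 52.2% and 56.0%. The share of cells with Cxcl1 was thus only slightly higher in the cluster. The UMIs were still uneven, since 5 Tom- cells held 430 of the 1232 Cxcl1 UMIs and 297 of the 711 Icam1 UMIs, and 5 Tom+ cells 480 of 1792 and 149 of 756.

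Other members of the cluster lay in a few cells. It held 67.1% and 29.1% of all hepatocyte UMIs of Cxcl2, in 10 and 14 cells, and 84.8% and 31.4% of those of Ccl2, in 12 and 11 cells. Of the 225 Tom- UMIs of Vcam1 there, 195 lay in 5 cells. Without the cluster Cxcl2 and Ccl2 were no longer above carry-over. Not every hepatocyte member was raised: Cxcl12 stood at 0.930- and 0.914-fold, Vegfa at 0.833- and 0.859-fold and Mmp14 at 1.07-fold of the other hepatocytes. The cluster also carried the zone 3 markers Glul, Lgr5 and Axin2, and a summed macrophage marker level of 292 CPM, whose part in these values was not tested.

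**Figure D5:**
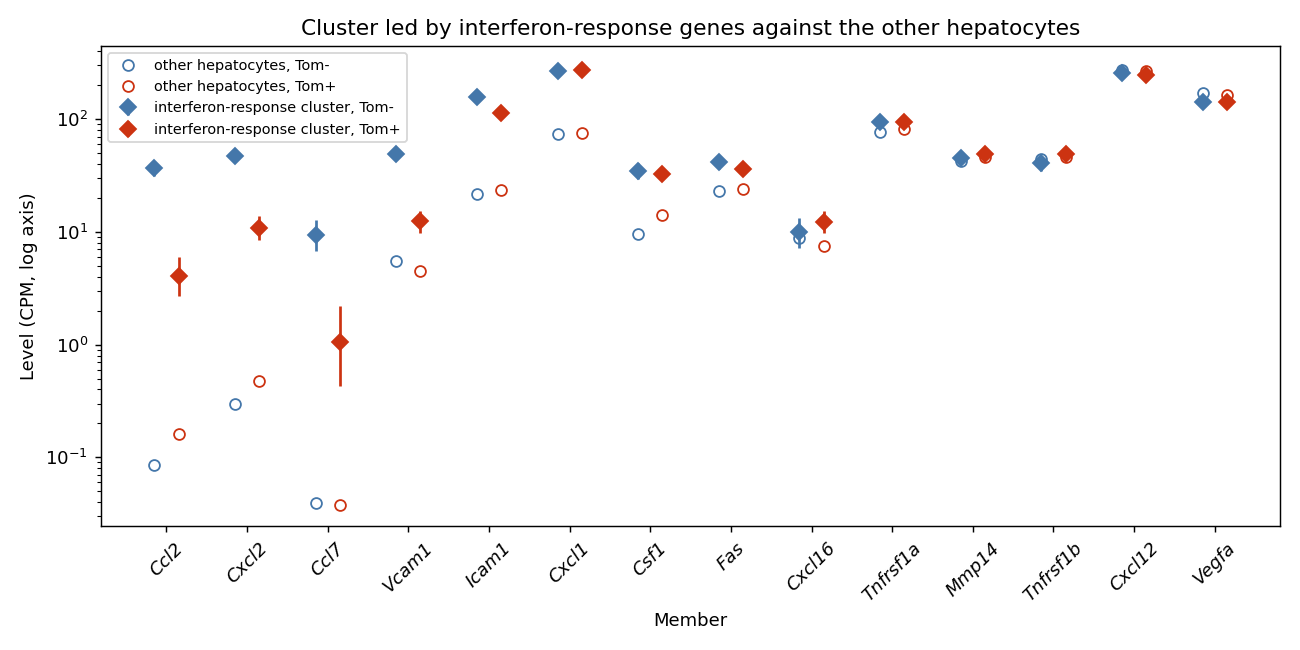
Level (CPM, log axis) of 14 members in the cluster led by interferon-response genes (filled diamonds, 95% Poisson intervals) and in all other hepatocytes (open circles), for the Tom- (blue) and Tom+ (red) library. Diamonds lie farthest above circles for Ccl2, Cxcl2 and Ccl7, above them for Vcam1, Icam1, Cxcl1 and Csf1, and next to them for Mmp14, Cxcl12 and Vegfa.

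The receptors of the hepatocyte-expressed members lay mostly in other cells. Cxcr2, which binds Cxcl1 and Cxcl2, was highest in other leukocyte-like cells at 14.0 and 12.4 CPM, and Cxcr4, which binds Cxcl12, in macrophage-like cells at 23.9 and 20.0 CPM. Csf1r, the receptor of Csf1, stood at 563 and 522 CPM in macrophage-like cells, where it had served as a marker. Kdr and Flt1, which bind Vegfa, were endothelial at 228 and 249 CPM and at 96.1 and 112 CPM, and Kdr was likewise a marker of that class. Itgal, a subunit of the integrin that binds Icam1, was at 205 and 182 CPM in macrophage-like cells, and Egfr, the receptor of Areg, was a hepatocyte gene at 257 and 204 CPM. Over the 20 receptors listed, 7 were above carry-over in hepatocytes (all features 61.9%) and 16 could be compared between the libraries, where none was higher and Cxcr4, Ccr2 and Flt1 were lower by at least 1.5-fold in Tom+ hepatocytes (all genes 5.81%). These 3 were not above carry-over, and the summed endothelial and macrophage markers were 0.761- and 0.805-fold in Tom+ hepatocytes, whose part in these differences was not tested.

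Of 24 upstream regulators listed, 22 were measured and 18 were above carry-over in hepatocytes, against 61.9% of all features. Nfkb1 stood at 34.1 and 35.2 CPM and Rela at 95.4 and 85.3 CPM, the subunits of the classical NF-κB dimer, and Cebpb at 964 and 1008 CPM. Over all hepatocytes 1 of 22 passed 1.5-fold between the libraries (all genes 5.81%), Socs3, a feedback inhibitor of cytokine signalling, at 2.18 and 4.38 CPM. Socs3 stood at 6.82 and 6.90 CPM in zone 3-like cells, at 1.44 and 1.82 CPM in zone 1-like cells (log2 ratio 0.34, 0.05 to 0.63) and at 2.05 and 3.45 CPM in hepatocytes without a zone name (0.75, 0.55 to 0.96). Gata4, which was not above carry-over, passed in zone 3-like cells among 20 tested (all genes 2.59%) and Mapk14 in stellate-like cells among 12 tested (all genes 7.76%), both higher in the Tom+ library. Between the zones Relb, Nfkbiz, Cebpd, Tlr2, Socs3 and Jun were higher in zone 3-like cells in both libraries and Mapkapk2 was lower, among 20 tested (all genes 15.1%). Relb, for example, was at 5.71 against 3.42 CPM (Tom-) and 5.29 against 2.87 CPM (Tom+). Tlr2 was not above carry-over in hepatocytes.

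Of 30 further secretory genes listed, 29 were measured and 17 were above carry-over (all features 61.9%), among them Gdf15, Igfbp1, Igfbp2, Lcn2 and Cxcl10. In hepatocytes 21 could be compared between the libraries, and Tgfb2 was higher in Tom+ cells by at least 1.5-fold (all genes 5.81%). Tgfb2 was not above carry-over. Their median log2 ratio was 0.10, against 0.04 for all genes tested. Between the zones Cxcl9, Serpine2, Pdgfa and Il15 were higher in zone 3-like cells and Lcn2, Inhba and Il7 lower, among 18 tested (all genes 15.1%).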

How the data were processed

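Fixed liver cells were profiled with pairs of probes (10x Flex). The deposited matrices hold UMI counts per gene and cell, which the authors made with Cell Ranger 7.2.0 (mm10) and did not normalise. The libraries held 23220 (Tom-) and 16339 (Tom+) barcodes and 681279005 and 715333889 UMIs. Cells with 2000 to 10000 genes, at most 100000 UMIs and a mitochondrial fraction of at most 0.05 were kept, as in the study's methods, and doublets were not removed.

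For clustering only, each cell was brought to 10000 counts and a log was taken. From 2000 variable genes without the members, 30 principal components and 20 neighbours were used for Leiden clustering at resolution 0.8 in 2 rounds with leidenalg 0.10.2 under scanpy 1.11.5. Clusters were named from marker lists, with at least 3 markers of the class. The numerical limits for naming were set after the clusters had been seen, so class sizes may differ from the study's. UMIs were summed per class and library, and CPM values carry exact 95% Poisson intervals from scipy 1.17.1, ratios exact conditional ones. A call needed 1.5-fold and 100 UMIs, and an upper limit for a level of 0 is that of 3 counts. PCR copies are collapsed by UMI, but intervals cover counting error only.

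The members and lists were chosen with earlier results of these data known, and no list or score has a p-value. All 39 members were accounted for. Alternatives were 2 other resolutions, members among the variable genes, the 10% of cells with the highest doublet scores left out, cells thinned to 5000 UMIs, median-of-ratios scaling, at least 20 UMIs, a fold of 2, hepatocytes under the median of non-hepatocyte markers, and carry-over by the median ratio. Leaving out 2 clusters at least 90% Tom+, leaving out the interferon-response cluster, 1 common mix of zones, and the cluster led by mesothelial genes as a further source of carry-over were chosen after seeing the data. Gene positions came from the GENCODE annotation of GRCm38, and promoters from RefSeq on GRCm38.p6. The result of 1 gene in the list of further secretory genes is not reported here.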

Additional observations from a re-analysis of the deposited data

Results flagged for a closer look

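Cells left out of the named classes held Igfbp5 far above its hepatocyte level (3.05 and 2.68 CPM). They held Cxcl1 moderately above its hepatocyte level (77.0 and 78.2 CPM). A cluster of 34 Tom- and 15 Tom+ cells, led by the mesothelial genes Msln, Gpm6a and Wt1, carried Igfbp5 at 317 CPM (208 and 106 UMIs) and Cxcl1 at 101 CPM (66 and 34 UMIs). No comparison between groups uses these cells, and the values have no test.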

How the results depend on the processing

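With 1 library per fraction no difference was tested, and low counts limited the sparse members. The number of members above carry-over (15) stayed between 13 and 18, and 0 endothelial-like calls were made in every alternative run for that class. Counts of calls were small and moved easily. For all hepatocytes (4 members past 1.5-fold) a fold of 2 gave 1, which was Ccl2, at least 20 UMIs 7, and leaving out the interferon-response cluster 2. Thinning and keeping hepatocytes under the median of non-hepatocyte markers each gave 1. In both it was Il1a, lower in the Tom+ library and not among the 4. For zone 1-like cells (1) resolutions 0.4 and 1.2, members among the variable genes and median-of-ratios scaling gave 2, fewer doublets 3, at least 20 UMIs 4, and a fold of 2 or leaving out the clusters at least 90% Tom+ 0. For zone 3-like cells (1) resolution 0.4 gave 6, fewer doublets 4, at least 20 UMIs 7, and resolution 1.2, members among the variable genes, thinning, a fold of 2, hepatocytes under that median and leaving out the clusters at least 90% Tom+ gave 0. For stellate-like cells (1) resolution 0.4 gave 3, at least 20 UMIs 4, and thinning, median-of-ratios scaling and a fold of 2 gave 0. For macrophage-like cells (2) resolution 0.4 and fewer doublets gave 1, at least 20 UMIs 9 and a fold of 2 gave 0. Between the zones (5) thinning and a fold of 2 gave 2, at least 20 UMIs 8 and hepatocytes under the median of non-hepatocyte markers 4. The cause was not tested, except that fewer UMIs per cell or a higher fold leave fewer genes to pass.

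Values past 1.5-fold turned for 3 sparse members above carry-over, some from fewer UMIs than a call needs, and Ccl5 also turned, in hepatocytes with fewer doublets. The log2 ratio of Tom+ over Tom- in zone 3-like cells became -2.31 for Cxcl2 and -2.83 for Ccl2 at resolution 0.4, and -2.59 and -3.26 with fewer doublets. The Tom- zone ratio of Ccl2 became 4.33 and 5.16 under the same settings. For Igfbp6 the Tom+ zone ratio became -0.38 with thinning, and Tom+ over Tom- in zone 3-like cells -0.023 under the median of non-hepatocyte markers and -0.88 without the clusters at least 90% Tom+. Ccl2 in all hepatocytes became 0.92 without the interferon-response cluster. Values that had not passed 1.5-fold changed sign more often: with 1 common mix of zones the hepatocyte log2 ratio became -0.16 for Icam1, 0.32 for Igfbp5, -0.68 for Areg, -0.04 for Tnfrsf1a and -0.06 for Fas, and that of Cxcl1, near 0, changed sign in 4 of 10 settings. Of the other single values 491 moved by less than their counting interval and 178 by more. No paired analysis was possible because each fraction has 1 library.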
